A study of Mus musculus with 9 samples.

Results

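The genes described here are 10 acute-phase and fibrinogen-family genes of the mouse, Saa1, Saa2, Saa3, Orm1, Lrg1, Hp, Fga, Fgb, Fgg and Fgl1, measured in whole lung. They were chosen by their measured values, because Saa3, Fgg and Fgl1 were higher in cre lungs than in control lungs, so both cre-against-control differences of these genes are a description and carry no test. All probes whose RefSeq transcript belongs to these genes were taken, which gave 11 probes, 1 per gene and 2 for Fga. Of the 10 genes, 8 passed the filter on dim probes and were among the 16843 genes tested, and Fga and Fgb were not.

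RNA from 9 whole lungs was hybridised to 9 one-colour Agilent expression arrays, 1 lung per array and 3 lungs per group. All mice carried TRF1flox/flox, a conditional allele of Terf1, which encodes the telomere-binding protein TRF1, and all received tamoxifen at 250 mg/kg of body weight each week from 8 weeks of age. Control lungs came from TRF1flox/flox littermates without cre and were taken at 11 months of age, when treatment had run for 9 months. SPC-cre TRF1flox/flox lungs were taken either at the age of 5 months (3 months of treatment) or at the age of 11 months (9 months of treatment). The SPC promoter directs cre to cells that make surfactant protein C, in the adult lung the alveolar type 2 cells, whereas the RNA came from all cells of the lung. No control lung of 5 months is in the design, so in the 3-month comparison the genotype cannot be told apart from age and length of treatment.

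Acute-phase proteins are plasma proteins whose levels climb within hours to days of injury or infection. Most are made by the liver, where the cytokine IL-6 acts through STAT3, and IL-1 acts through NF-kB and C/EBP factors, on their promoters, but several are also made locally, and in the mouse Saa3 is the serum amyloid A made mainly outside the liver. Fibrinogen, the precursor of the fibrin clot, is assembled from the Aα, Bβ and γ chains encoded by Fga, Fgb and Fgg, and all of these chains are needed for a complete molecule.

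The 75th percentile of probe intensity, to which each array was scaled, lay between 958.4 and 1430 intensity units, and no spot was saturated. Levels below are log2 intensities relative to that percentile, so a level of 0 is the 75th percentile and a step of 1 is a 2-fold difference. The arrays came from 2 slides, each scanned in 1 session: slide 1 held the 3 controls and replicate 1 of the 3-month cre group, and slide 2 held the other 5 arrays. The share of probes well above background was 62.7 to 64.9% on slide 1 and 67.9 to 72.4% on slide 2, so fewer probes counted as detected on the slide that held every control, and the part of the slide in genes detected in cre and not in control lungs was not tested. By their Xist and Y-linked probes the 3 controls were male, and each cre group held 1 male and 2 females. Terf1, the floxed gene, had a mean level of -0.07 ± 0.28 (SD, n = 3) in controls, -0.63 ± 0.05 in 3-month cre and -0.59 ± 0.33 in 9-month cre lungs, with every cre array below every control array, but neither difference passed the test (limma, Benjamini-Hochberg adjusted p = 0.131 at 9 months and 0.190 at 3 months). Whether the Terf1 probe lies in the floxed segment was not examined. Sftpc, which encodes surfactant protein C and marks lung tissue, had levels from 7.89 to 8.60 over the 9 arrays. In whole-lung RNA, more cells of a type and more RNA per cell cannot be told apart.

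The serum amyloid A genes stood lowest in controls and highest in 9-month cre lungs. Saa3 was 4.42 ± 0.72 (SE) log2 units higher in 9-month cre than in control lungs and 2.46 ± 0.72 higher in 3-month cre lungs. Fgg was 4.35 ± 0.79 and 4.42 ± 0.79 higher, and Fgl1 2.76 ± 0.31 and 2.66 ± 0.31 higher, with similar means at both collections. Lrg1 followed Fgg and Fgl1 in that respect, and the mean of Orm1 was 0.47 log2 units higher at 9 months than at 3 months. Hp, already bright in controls, differed least from them. Fga and Fgb encode the partners of the Fgg chain, and each of their probes was not well above background on most arrays.

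**Figure D1:**
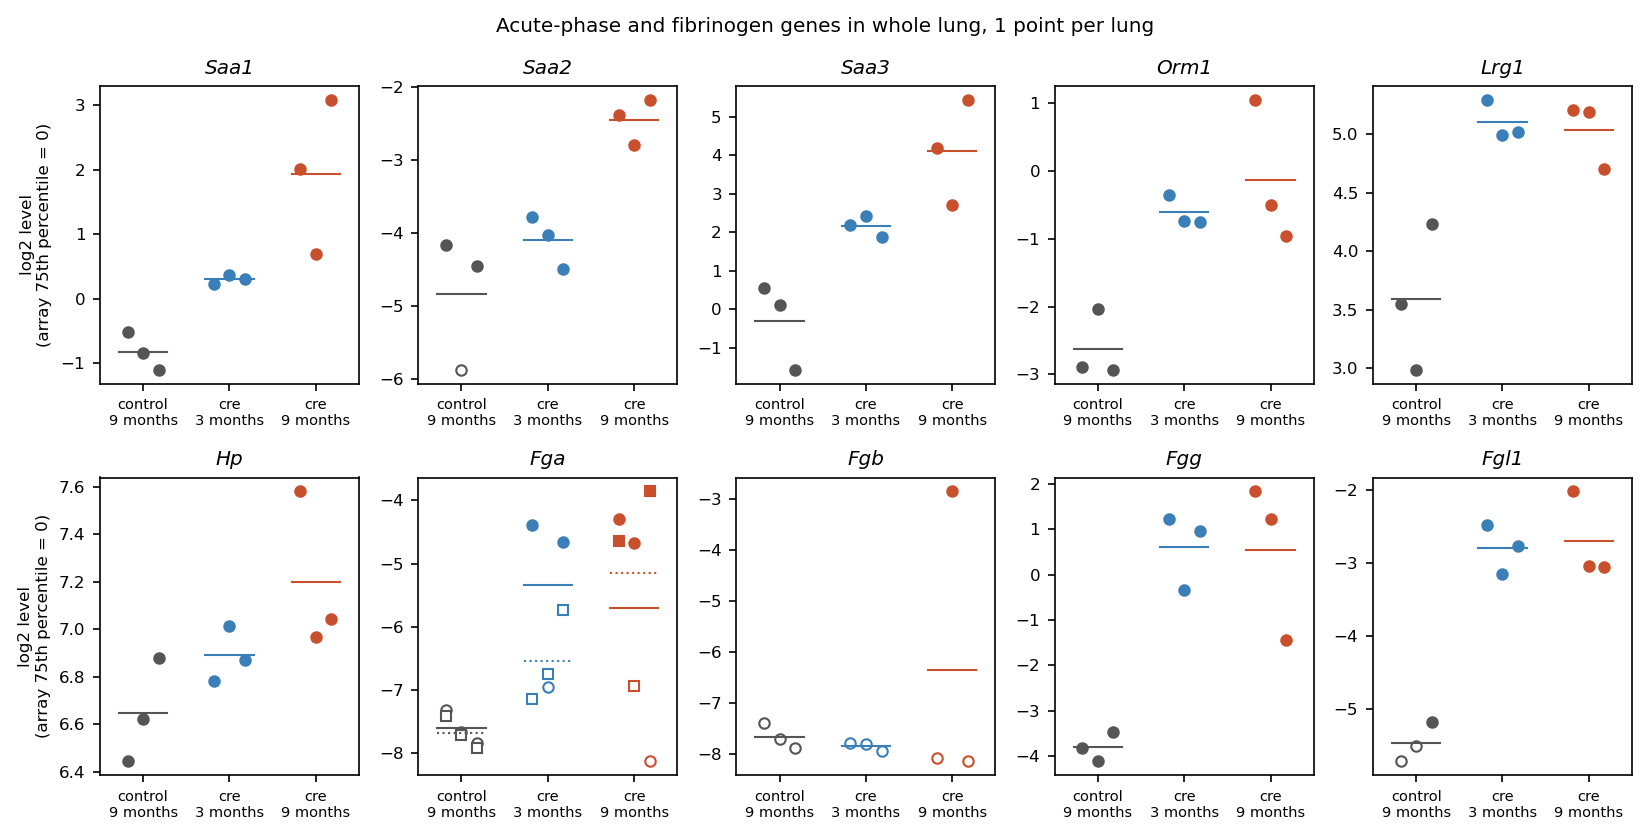
Log2 level of each gene in each lung (array 75th percentile at 0), with controls in grey, 3-month cre in blue and 9-month cre in orange; lines are group means, hollow points were not well above background, and for Fga the squares and dotted lines are the second probe. Every 9-month cre lung lies above every 3-month cre lung for Saa1, Saa2 and Saa3, and Fgb is well above background in 1 lung.

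The serum amyloid A genes encode small apolipoproteins of high-density lipoprotein that also attract leukocytes through the receptor FPR2. Saa1, Saa2 and Saa3 lie close together on chromosome 7, at chr7:46740497-46743181, chr7:46751833-46754313 and chr7:46711998-46719615 in GRCm38.p6, the build of the RefSeq table that named the probes. Saa1 and Saa2 are near-identical copies, so the signal of either probe may hold transcripts of both. The letters of their promoters are shown so that the near-identical copies can be set beside Saa3, the member of the family that differed most from controls. The 250 bases before the annotated transcript start, from RefSeq, run 5′ to 3′ at chr7:46742981-46743230 on the minus strand, chr7:46751583-46751832 on the plus strand and chr7:46715677-46715926 on the minus strand. The Saa1 and Saa3 starts used lie inside the annotated spans of their genes, so these windows overlap those spans. Capitals mark matches, on either strand, to TTGCNNAA, a core of the C/EBP motif, or to GGNNTTTCC, an NF-kB motif.
Saa1: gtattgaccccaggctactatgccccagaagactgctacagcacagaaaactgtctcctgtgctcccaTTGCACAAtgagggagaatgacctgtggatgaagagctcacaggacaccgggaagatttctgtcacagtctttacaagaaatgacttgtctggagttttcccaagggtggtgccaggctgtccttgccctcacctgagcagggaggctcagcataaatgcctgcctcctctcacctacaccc
Saa2: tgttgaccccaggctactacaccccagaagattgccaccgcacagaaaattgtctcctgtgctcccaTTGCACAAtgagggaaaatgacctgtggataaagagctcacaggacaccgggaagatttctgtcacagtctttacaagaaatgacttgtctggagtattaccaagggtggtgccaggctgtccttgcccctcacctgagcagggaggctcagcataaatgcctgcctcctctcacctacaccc
Saa3: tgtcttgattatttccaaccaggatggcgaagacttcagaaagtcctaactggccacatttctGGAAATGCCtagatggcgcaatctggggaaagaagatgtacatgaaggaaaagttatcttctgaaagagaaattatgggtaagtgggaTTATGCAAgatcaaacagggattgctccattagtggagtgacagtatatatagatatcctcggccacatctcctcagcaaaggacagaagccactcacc
The Saa1 and Saa2 windows were 94.8% identical over the aligned columns, against 52.5% for Saa1 and Saa3 and 51.8% for Saa2 and Saa3. Saa1 and Saa2 held the same C/EBP letters at -182 to -175 and -183 to -176 from the start. Saa3 held the NF-kB letters at -187 to -179 and C/EBP letters at -99 to -92. Of 27025 mouse promoter windows of this length, 9.55% held the C/EBP letters and 4.84% the NF-kB letters, so a match is common and is a description only.

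Saa3 had levels of 0.55, 0.11 and -1.58 in the controls, 2.18, 2.43 and 1.86 in 3-month cre lungs and 4.19, 2.70 and 5.45 in 9-month cre lungs, in the order of replicates 1 to 3. In intensity units this ran from 385.9 to 1557 in controls, from 4149 to 7691 at 3 months and from 7365 to 47270 at 9 months. The groups did not overlap on the scaled levels, and the 9-month lungs were the most spread, with replicate 3 highest and replicate 2 just above the 3-month lungs.

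Saa1 had levels of -0.52, -0.85 and -1.11 in controls, 0.22, 0.36 and 0.31 in 3-month cre and 2.01, 0.69 and 3.09 in 9-month cre lungs. Its 3 groups also stood apart, and the order of the 9-month lungs was that of Saa3. Saa2, a dimmer probe, had levels of -4.17, -5.88 and -4.46 in controls, where replicate 2 was not well above background, -3.78, -4.03 and -4.49 in 3-month cre and -2.39, -2.80 and -2.18 in 9-month cre lungs. Its 3-month lungs overlapped the controls, and its 9-month lungs lay above both other groups. Being dim in controls, Saa2 was 1.26 log2 units higher at 9 months with normexp background correction and 1.44 with the deposited values, against 2.38 ± 0.42 here. Over the 9 arrays, which share slide and sex differences, the levels of Saa1 and Saa3 correlated at r = 0.964, those of Saa1 and Saa2 at 0.860 and those of Saa2 and Saa3 at 0.813.

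Whether the genes moved between the collections was asked by comparing 9-month with 3-month cre lungs. The genes were not chosen on this comparison, but it rests on the same cre arrays by which they were chosen. How far the choice shaped it was not tested. Saa3 was 1.96 ± 0.72 log2 units higher at 9 months (95% interval 0.30 to 3.61), Saa2 1.65 ± 0.42 higher (0.69 to 2.61) and Saa1 1.63 ± 0.50 higher (0.48 to 2.78). None passed the threshold of 0.05 after adjustment over all genes tested, with adjusted p of 0.123, 0.0569 and 0.0807 by limma, although each was higher in every 9-month than in every 3-month lung. Of all genes, 14.6% showed that separation, so it is a frequent pattern in these arrays. Without replicate 2 of the 9-month cre group Saa1 passed, at 2.25 ± 0.31 and adjusted p = 0.0200, and without control replicate 2, whose Saa2 probe was the dim one, Saa2 passed at an unchanged 1.65 with adjusted p = 0.0406. Within slide 2, which held 2 of the 3-month and all of the 9-month lungs, the differences were 1.97 ± 0.79 for Saa3, 1.81 ± 0.25 for Saa2 and 1.59 ± 0.68 for Saa1, with adjusted p of 0.287, 0.159 and 0.307.

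Orm1 and Lrg1 encode secreted plasma glycoproteins, orosomucoid, which binds lipophilic molecules, and leucine-rich α2-glycoprotein, which modulates TGF-β signalling in endothelium and is also stored in neutrophil granules. Orm1, at chr4:63344556-63348163, had levels of -2.89, -2.04 and -2.93 in controls, -0.35, -0.73 and -0.74 in 3-month cre and 1.06, -0.50 and -0.96 in 9-month cre lungs. Every cre lung lay above every control, and the 3-month lungs fell inside the range of the 9-month lungs. The 9-month minus 3-month difference of 0.47 ± 0.48 did not pass (adjusted p = 0.552, interval -0.63 to 1.58).

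Lrg1, at chr17:56119678-56121946, had levels of 3.55, 2.98 and 4.23 in controls, 5.30, 4.99 and 5.02 in 3-month cre and 5.21, 5.19 and 4.71 in 9-month cre lungs. Both cre groups lay above the controls and overlapped each other, with a difference of -0.07 ± 0.29 between them (adjusted p = 0.906, interval -0.74 to 0.61). The Lrg1 promoter window held CTGGGAA, a type II IL-6 response motif, at -102 to -96. Hp encodes haptoglobin, which binds free haemoglobin, and lies at chr8:109575128-109579172. Its levels of 6.44, 6.62 and 6.88 in controls, 6.78, 7.02 and 6.87 in 3-month cre and 7.58, 6.97 and 7.04 in 9-month cre lungs were high in every group. The 9-month lungs stood above the controls by 0.55 ± 0.19, the 3-month lungs overlapped the controls, and the 9-month minus 3-month difference of 0.31 ± 0.19 did not pass (adjusted p = 0.309). In the deposited values the 9-month lungs overlapped the controls too. Over the processing alternatives the 9-month difference from controls ran from 0.15 to 0.81.

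Of the fibrinogen chains, Fgg alone was well above background on every array. The 3 genes form a cluster on chromosome 3, Fgg at chr3:83007724-83015056, Fga at chr3:83026153-83033627 and Fgb at chr3:83042246-83049863. Fgg had levels of -3.84, -4.12 and -3.47 in controls, 1.22, -0.35 and 0.95 in 3-month cre and 1.84, 1.21 and -1.45 in 9-month cre lungs. In intensity units these were 63.3 to 104.3 in controls, 1123 to 3048 at 3 months and 397.3 to 3436 at 9 months. Over the processing alternatives the Fgg difference from controls ran from 3.512 to 5.266 at 9 months and from 3.555 to 5.031 at 3 months. Every cre lung exceeded every control, replicate 3 of the 9-month group was the lowest cre lung, and the 2 cre groups overlapped. Their difference was -0.07 ± 0.79 (adjusted p = 0.963), with an interval from -1.88 to 1.73 that leaves room for a sizeable change in either direction, and it was 0.92 without that lung.

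Fga was read by 2 probes that disagreed, and neither was well above background on all lungs of any group. The first had levels of -7.31, -7.66 and -7.83 in controls, -4.40, -6.96 and -4.66 in 3-month cre and -4.29, -4.68 and -8.13 in 9-month cre lungs, and was well above background in 2 lungs of each cre group. The second was well above background only in replicates 1 and 3 of the 9-month cre group, at -4.64 and -3.85. Against the floor of detectable signal in controls, the first probe was at least 1.01-fold higher in 3-month cre and the second at least 1.16-fold higher in 9-month cre lungs, so next to no minimum fold can be given.

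Fgb was well above background in a single lung, replicate 2 of the 9-month cre group, at a level of -2.84 and 158.1 intensity units, and lay between -8.15 and -7.39 on the other 8 arrays. That lung stood apart in some liver transcripts: 9 of the 15 hepatocyte markers were highest there. Alb, the albumin gene, was at 0.43 there and between -4.78 and -3.36 elsewhere, and Ttr, the transthyretin gene, was well above background on no other array. Apoa1 and Cps1 were well above background on no array, and the summed level of the list, in multiples of the 75th percentile, ranged over 7.29 to 12.9 in controls, 8.56 to 9.60 in 3-month and 4.75 to 10.9 in 9-month cre lungs. Fgg in that lung, at 1.21, lay between the other 9-month lungs, and the mean Fgg difference from controls without it was 4.01 log2 units.

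The promoters of the chains are shown because Fgg was well above background in every lung and its partner chains were not. By either probe, Fga was well above background in some 3-month and in all 9-month cre lungs, and Fgb in 1 lung. The windows, from RefSeq in GRCm38.p6, lie at chr3:83007474-83007723 on the plus strand, chr3:83025903-83026152 on the plus strand and chr3:83049864-83050113 on the minus strand. Capitals mark matches on either strand to TTCNNNGAA (STAT3), TTGCNNAA (C/EBP) or CTGGGAA (type II IL-6 response).
Fgg: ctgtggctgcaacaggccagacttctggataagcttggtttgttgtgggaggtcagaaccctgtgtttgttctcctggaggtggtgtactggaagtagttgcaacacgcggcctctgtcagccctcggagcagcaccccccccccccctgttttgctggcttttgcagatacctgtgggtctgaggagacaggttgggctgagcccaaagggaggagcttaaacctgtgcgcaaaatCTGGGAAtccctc
Fga: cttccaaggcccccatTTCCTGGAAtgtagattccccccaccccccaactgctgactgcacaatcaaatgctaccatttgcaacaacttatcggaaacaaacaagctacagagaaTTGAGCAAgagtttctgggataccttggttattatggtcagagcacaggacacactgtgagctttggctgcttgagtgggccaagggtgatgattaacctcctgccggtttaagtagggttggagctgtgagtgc
Fgb: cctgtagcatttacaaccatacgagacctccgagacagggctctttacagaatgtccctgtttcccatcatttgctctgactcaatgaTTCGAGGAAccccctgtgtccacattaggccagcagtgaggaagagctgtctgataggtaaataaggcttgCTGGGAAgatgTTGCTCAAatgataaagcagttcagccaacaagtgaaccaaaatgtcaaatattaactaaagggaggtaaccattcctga
Fga held STAT3 letters at -234 to -226 and C/EBP letters at -135 to -128. Fgb held STAT3 letters at -162 to -154, the IL-6 letters at -91 to -85 and C/EBP letters at -80 to -73. Fgg held only the IL-6 letters, at -13 to -7. The STAT3 letters occurred in 7.18% and the IL-6 letters in 9.08% of all windows, and 7 of the 10 genes had a window in the RefSeq table.

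**Figure D2:**
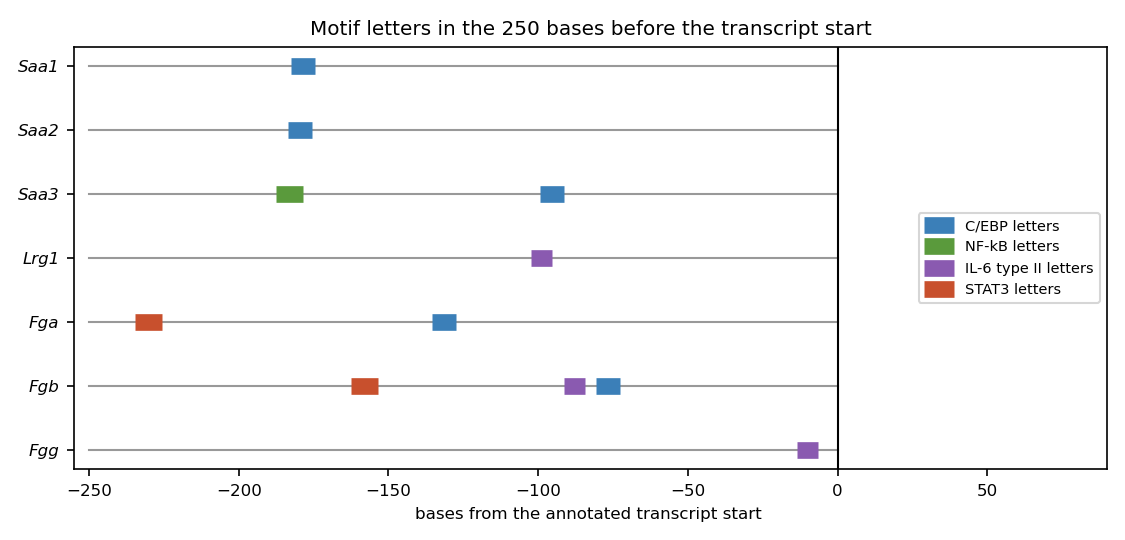
Matches to the motif letters in the 250 bases before the annotated transcript start (black line, bases from the start on the x axis) for the 7 genes with a promoter window; block width is the motif length. Fga and Fgb hold STAT3 and C/EBP letters, Fgg holds the IL-6 letters alone, and Saa1 and Saa2 share 1 C/EBP match.

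Fgl1 encodes fibrinogen-like protein 1, or hepassocin, a secreted protein of the liver that carries a fibrinogen domain, does not join the clot and serves as a ligand of the T-cell receptor LAG-3. It lies at chr8:41191434-41217978. Its levels were -5.71, -5.50 and -5.17 in controls, of which replicate 3 alone was well above background, -2.48, -3.16 and -2.77 in 3-month cre and -2.02, -3.04 and -3.06 in 9-month cre lungs. All cre lungs were above all controls and the cre groups overlapped, differing by 0.09 ± 0.31 (adjusted p = 0.870, interval -0.61 to 0.79). Because 2 of the controls were dim, the size of the cre-against-control difference depended on the background correction, and at 3 months it was 1.24 with normexp and 1.54 with the deposited values in place of 2.66.

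**Figure D3:**
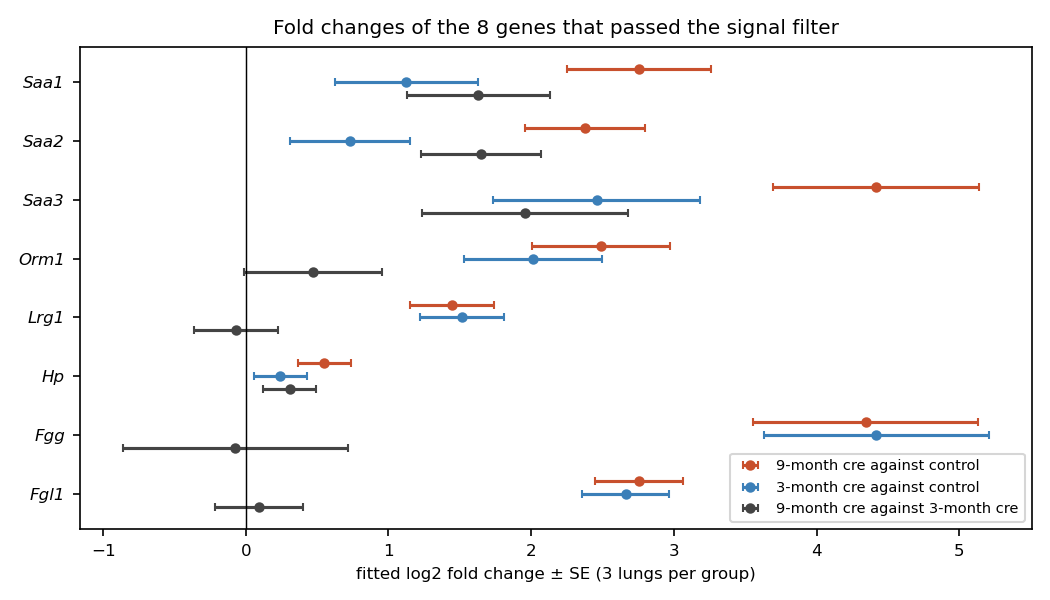
Fitted log2 fold change with its SE for the 8 genes tested, in the 3 comparisons (limma, 3 lungs per group). Saa1, Saa2 and Saa3 have 9-month minus 3-month differences of 1.63 to 1.96, and those of Fgg, Fgl1 and Lrg1 run from -0.07 to 0.09. Orm1 and Hp lie between, at 0.47 and 0.31.

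Called at an adjusted p under 0.05, 7 of the 8 tested genes were higher in 9-month cre than in control lungs, all but Hp, and Fgl1 was higher in 3-month cre lungs. These counts follow from how the genes were chosen. Over all genes 3.65% were called higher and 2.81% lower at 9 months, 0.368% higher and 0.0831% lower at 3 months, and every cre lung exceeded every control for 17.5% of genes at 9 months and 19.6% at 3 months. Saa2 and Fgl1 passed the filter through their cre lungs, so a difference in them was built in. In the 9-month against 3-month comparison 1.79% of all genes were called higher and 3.2% lower, and no member was called, with Saa1, Saa2 and Saa3 at an unadjusted p under 0.05.

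Slide and sex ran with the groups. With slide as a block limma called no gene of the 16843 in any comparison (837 genes at an unadjusted p under 0.05 for 9-month cre against control, 1144 for 3-month cre against control and 3589 between the cre groups), and the members' 9-month minus control values then were 4.45 ± 1.40 for Saa3, 5.27 ± 1.47 for Fgg and 3.24 ± 0.55 for Fgl1. Within slide 1 a single 3-month cre lung, a female, met the 3 male controls. There Fgg was 5.03, Fgl1 2.99, Saa3 2.48, Orm1 2.28 and Lrg1 1.71 log2 units higher. Saa1 and Saa2 were each 1.05 and Hp 0.14 higher. Slide 2 held no control, so the 9-month comparison with controls has no within-slide value. With sex as a covariate limma called no gene against controls (3711 at an unadjusted p under 0.05 at 9 months and 2191 at 3 months), and Saa3 was 4.59, Fgg 4.52 and Fgl1 2.92 log2 units higher at 9 months.

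Other acute-phase genes were read from a list of 22, of which 20 were tested. At 9 months 7 rose against controls and none fell, with a list median of 0.70 against 0.02 for all genes. Orm2, a copy of Orm1, rose by 2.61 ± 0.47 (adjusted p = 0.0233), Lcn2, which encodes the iron-siderophore trap lipocalin 2, by 2.16 ± 0.26 (0.00994), and the metal-binding metallothionein genes Mt2 and Mt1 by 1.85 ± 0.20 and 1.19 ± 0.14 (both 0.00897). At 3 months Lcn2 alone rose, by 2.12 ± 0.26 (0.0258), with levels of 6.01 to 6.19 against 3.41 to 4.29 in controls. From 3 to 9 months Mt2 rose by 1.75 ± 0.20 (0.0179), Mt1 by 0.80 ± 0.14 (0.0297) and the complement gene C3 by 0.42 ± 0.09 (0.0393). The 9-month minus 3-month difference was 0.04 ± 0.26 for Lcn2 and 0.01 ± 0.47 for Orm2, and neither passed (adjusted p = 0.942 and 0.989). Mt2 at 3 months, with levels of 3.39 to 3.67, overlapped the controls at 3.37 to 3.57. Leaving out 1 array at a time, 4 to 9 genes of the list rose at 9 months (4 without control replicate 1 or 2), 0 to 3 at 3 months and 0 to 6 between the collections (0 without 3-month cre replicate 1 or 2). The Lcn2 call at 3 months was lost in 4 of those 9 fits, which left out replicate 1 or 2 of the controls or replicate 2 or 3 of the 3-month cre group.

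Of 26 genes of IL-6 and IL-1 signalling, 6 rose and 1 fell at 9 months against controls, none passed at 3 months (3 higher and 1 lower at an unadjusted p under 0.05 by limma), and 3 rose between the collections. Il22ra1, a subunit of the IL-22 receptor of epithelia, rose by 2.56 ± 0.54 (adjusted p = 0.0340), Osm, the IL-6-family cytokine oncostatin M, by 2.17 ± 0.31 (0.0147), Socs3, the feedback inhibitor of STAT3 signalling, by 1.37 ± 0.27 (0.0284), and Bcl3, a nuclear NF-kB partner, by 1.21 ± 0.16 (0.0119). From 3 to 9 months Bcl3 rose by 0.84 ± 0.16 (0.0349), Cebpb, which encodes a C/EBP factor, by 0.77 ± 0.13 (0.0290), and Stat3 by 0.53 ± 0.12 (0.0449). Il6 itself had levels of -3.56, -5.05 and -4.22 in controls, -2.82, -2.41 and -2.82 in 3-month cre and -1.65, -2.86 and 1.38 in 9-month cre lungs. Its differences from controls, 1.60 ± 0.93 at 3 months and 3.23 ± 0.93 at 9 months, did not pass (adjusted p = 0.385 and 0.0729). The 9-month lung with the highest Saa1, Saa2 and Saa3, replicate 3, also held the highest Il6, Osm, Socs3, Bcl3 and Cebpb, whereas Il22ra1, Stat3 and Pim1, a kinase gene that STAT3 induces, were highest in replicate 1. With 1 array left out at a time, the count moved from 2 (without control replicate 2) to 11 (without 9-month cre replicate 2) against controls. Between the collections it moved from 0, without control replicate 2, any 3-month lung or 9-month cre replicate 1, to 7 without 9-month cre replicate 2.

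**Figure D4:**
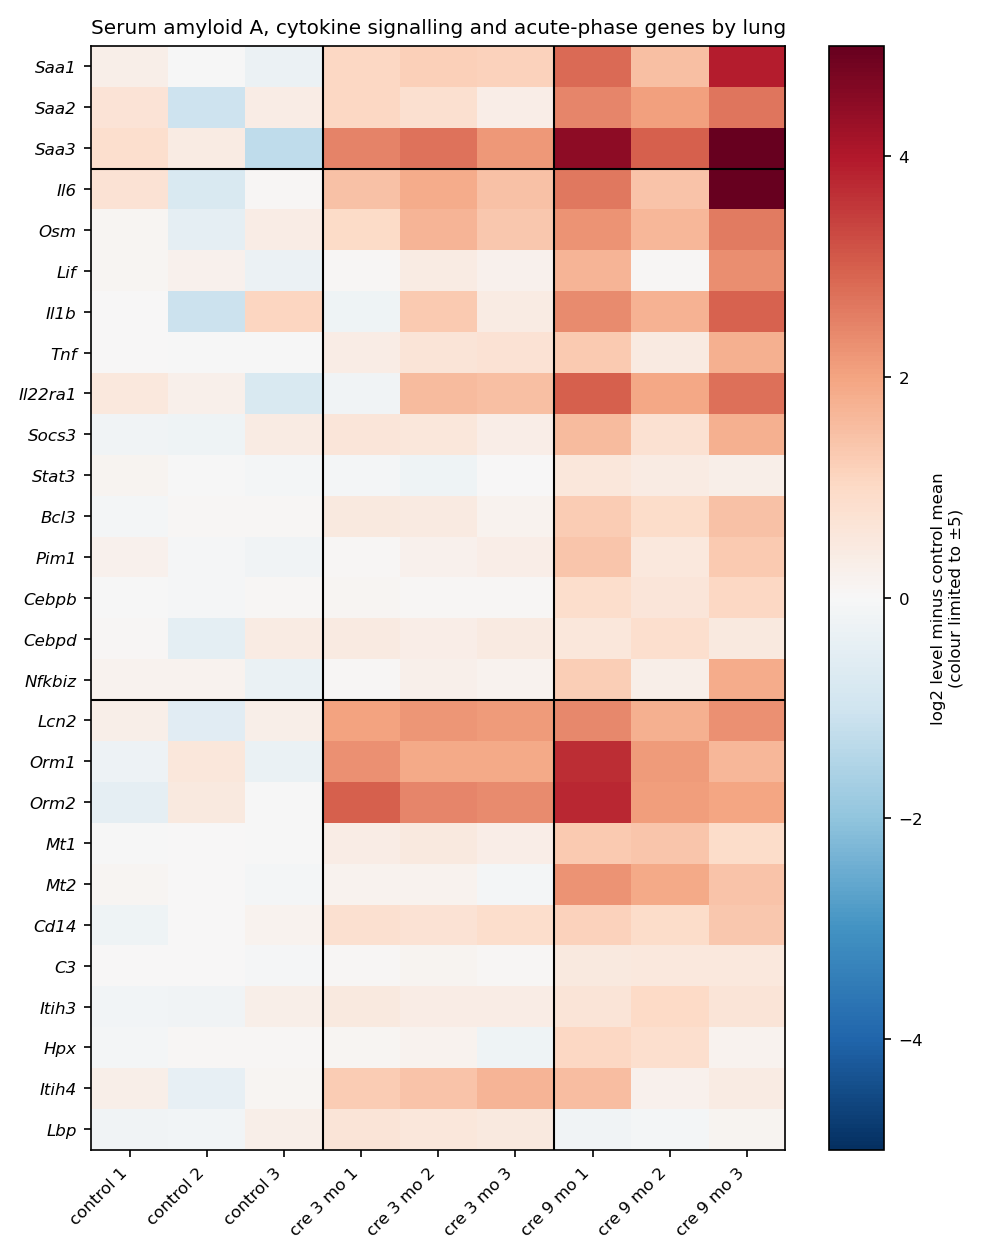
Level of serum amyloid A, cytokine signalling and other acute-phase genes in each lung as log2 difference from the control mean (colour, limited to 5 either way, red higher). Only part of the signalling and acute-phase lists is drawn. Cre 9-month replicate 3 has the deepest colour for Saa1, Saa3 and Il6, Mt2 is near control level at 3 months, and Lcn2, Orm1 and Orm2 are as deep at 3 as at 9 months apart from 9-month replicate 1.

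Among 19 receptors and binding partners of the proteins, 2 rose at 9 months and none passed at 3 months (6 higher and 1 lower at an unadjusted p under 0.05). Fpr2, a receptor for serum amyloid A, rose by 1.70 ± 0.39 (adjusted p = 0.0413), and Itgb2, a subunit of the leukocyte integrin that binds fibrinogen, by 1.06 ± 0.25 (0.0448). Between the collections Itgb3, a subunit of the platelet fibrinogen receptor, rose by 0.84 ± 0.19 (0.0486) and Icam1, which also binds fibrinogen, fell by 0.90 ± 0.18 on the log2 scale (0.0368). These calls were fragile: against controls none of the list rose when any single control, any single 3-month lung or 9-month cre replicate 1 was left out, 2 rose without 9-month cre replicate 3, and 5 rose and 2 fell without 9-month cre replicate 2. Between the collections 0 to 2 rose and 0 to 2 fell over the same 9 fits.

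Of 27 coagulation and fibrinolysis genes tested, 5 rose at 9 months, none passed at 3 months (6 higher and 1 lower at an unadjusted p under 0.05) and 1 rose between the collections. F10, which encodes coagulation factor X, rose by 2.60 ± 0.37 (adjusted p = 0.0142), Procr, the endothelial protein C receptor, by 1.07 ± 0.23 (0.0343), and Plaur, the urokinase receptor, by 0.64 ± 0.14 (0.0350). Serpinc1, which encodes antithrombin, rose by 1.34 ± 0.31 from 3 to 9 months (0.0480). With each array left out in turn, 0 (without control replicate 2) to 5 of these genes were called at 9 months, and 0 to 2 between the collections. Of 14 relatives that carry a fibrinogen domain, none rose at 9 months and 2 fell. Angpt4, an angiopoietin, was not well above background on any 9-month lung and was at least 1.94-fold lower than in controls (0.00897), where 1 lung was well above background, so that it passed the filter through the 3-month lungs, and Angptl2, an angiopoietin-like secreted protein, fell by 1.67 ± 0.35 on the log2 scale (0.0327).

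Markers of other cells moved beside these genes. Of 13 neutrophil genes tested, 4 rose at 9 months. Ngp, a granule protein gene of immature neutrophils, was at least 21.2-fold higher than in controls, where it was not well above background (adjusted p = 0.0163), and Camp, the cathelicidin gene, rose by 4.91 ± 0.79 (0.0182). Ngp and Ctsg, well above background in 0 and 1 of the controls, passed the filter through their cre lungs, so a difference in them was built in, and with the filter on every array 2 of 11 neutrophil genes rose. The 9 fits without 1 array called 0 (without control replicate 2) to 5 neutrophil genes. Of 15 macrophage genes 6 rose at 9 months and 3 at 3 months, Gpnmb by 2.71 ± 0.24 and 2.40 ± 0.24 (0.00897 and 0.0208) and Trem2 by 2.39 ± 0.28 and 1.84 ± 0.28 (0.00994 and 0.0430). Those macrophage counts ran from 2 (without control replicate 1 or 2) to 10 (without 9-month cre replicate 2) at 9 months and from 0 (with control replicate 2, or replicate 2 or 3 of the 3-month group, left out) to 5 at 3 months. Summed neutrophil levels ranged over 106 to 207 in controls, 159 to 229 in 3-month and 123 to 394 in 9-month cre lungs, and summed macrophage levels over 253 to 351, 409 to 483 and 494 to 556. S100a8, an abundant neutrophil transcript named here after its values were seen, had levels of 3.09, 1.48 and 4.73 in controls, 4.03, 4.82 and 4.34 in 3-month cre and 5.72, 5.96 and 3.09 in 9-month cre lungs. Its groups overlapped, and control replicate 3 exceeded 2 of the 3-month lungs. The list was mixed in this, since for Camp every cre lung lay above every control. The part of these cells in the levels of the acute-phase genes was not tested.

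Other cell types gave fewer calls at 9 months. Of 10 hepatocyte genes tested 1 fell, Fabp1 by 2.61 ± 0.41 on the log2 scale, and 1 rose, Hnf4a at least 1.91-fold. Hnf4a was well above background on no control and passed the filter through its cre lungs, so a difference was built in, and none of 8 rose with the filter on every array. It was also lost without 9-month cre replicate 2 and in 5 of the other 8 fits that left out 1 array. Alveolar type 2, club and heart muscle genes each had 1 that fell (of 10, 7 and 9), endothelial genes 1 that rose and 1 that fell (of 8), and none of the adipocyte, mesothelial, red cell and platelet genes passed by limma (of 8, 6, 4 and 5). At an unadjusted p under 0.05, 1 adipocyte and 2 mesothelial genes were lower, 1 platelet gene was higher and no red cell gene passed.

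**Figure D5:**
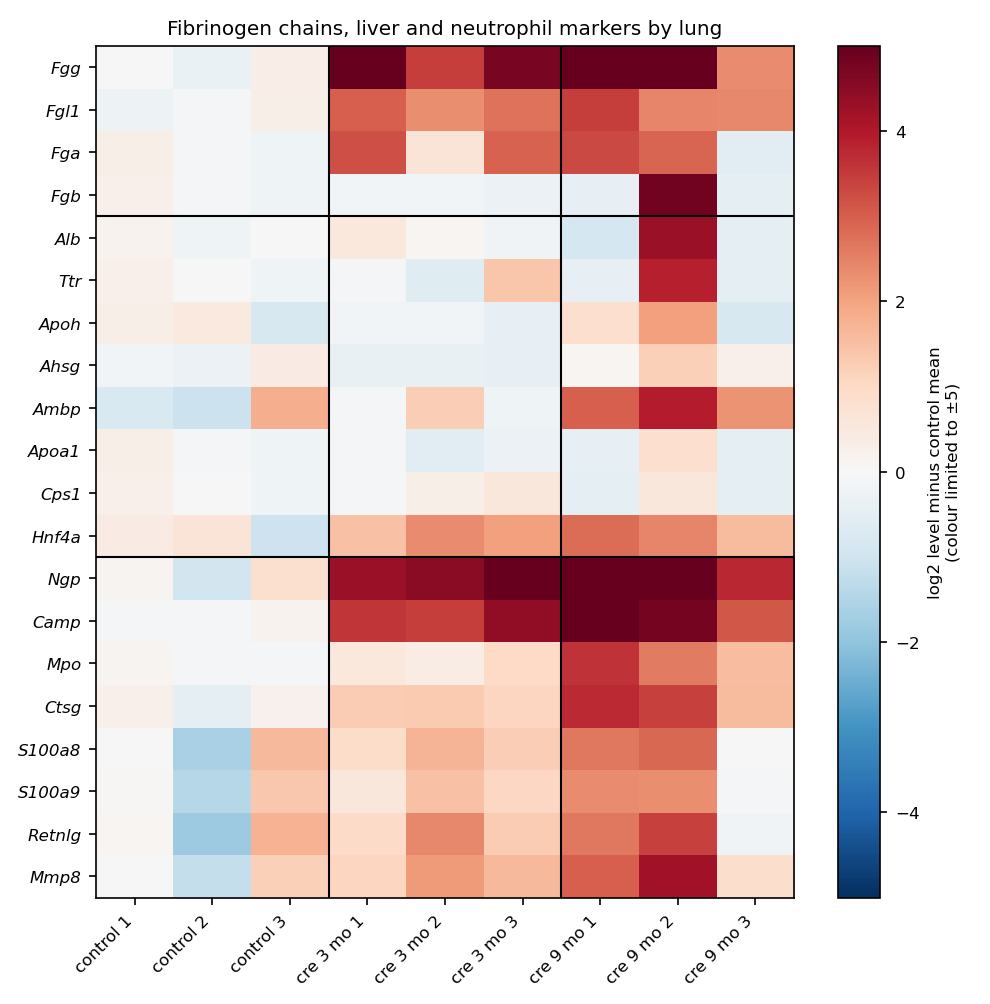
Level of the fibrinogen genes, liver markers and neutrophil markers in each lung as log2 difference from the control mean (colour, limited to 5 either way, red higher); Fga is its first probe, and values not well above background are drawn as measured. Only part of the hepatocyte and neutrophil lists is drawn. Fabp1, which fell, and Cyp2e1, Mmp9 and Csf3r, whose groups overlapped, are among those left out. Fgb, Alb and Ttr are deep in 9-month replicate 2 alone, Fgg is deep in all cre lungs but 9-month replicate 3, and Ngp and Camp are paler in that lung than in the other 9-month lungs.

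The genes whose pattern over the 9 arrays was most like that of a member were sought among 15495 named genes outside the set. Closest to Saa3 were Tox, Gpr85 and Tnpo1, with Pearson r of 0.990, 0.985 and 0.983. Closest to Fgg were Ngp at 0.965 and Cxcr1 and Trp53inp1 at 0.964, and closest to Fgl1 were Glipr1 at 0.979, Slpi at 0.973 and Orm2 at 0.972. Within the set, Fgg correlated with Fgl1 at 0.955, with Lrg1 at 0.924 and with Orm1 at 0.910, and with Saa1 at 0.523. These are descriptions over 9 arrays that share the group, slide and sex differences. Ngp had levels of -6.48, -7.55 and -5.84 in controls, -2.29, -2.13 and -0.97 in 3-month cre and 0.69, -0.69 and -2.86 in 9-month cre lungs, with the last lung lowest of the cre lungs for Ngp as for Fgg.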

How the data were processed

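Per the file headers, the deposited scanner files hold spot intensity from Agilent Feature Extraction 10.7.3.1, with a processed signal from which background was subtracted within the array, the median signal, the local background and spot flags. A further deposited table gives probe intensity after the authors had brought the arrays to a nearly equal scale, with array medians of 163.3 to 164.1. How this was done is not stated in the labels or headers, and the table served as an alternative. Control and irregular spots were left out and the spots of a probe averaged (62976 spots, 56605 probes). The log2 processed signal was taken relative to the 75th percentile of the array's probes. A probe was kept if all 3 arrays of some group flagged it as well above background (37647 probes), named through the RefSeq table by transcript accession, and the brightest probe per gene was used, which gave 16843 genes, of which 11 lacked a value on an array.

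Genes were tested with limma 3.58.1 (lmFit and eBayes, R 4.3.3) on all 9 arrays with group means alone, and p-values were adjusted by Benjamini-Hochberg over all genes at 0.05. The method was tested on simulated data. A gene not well above background on any array of a group has a bound, written "at least", against the lowest signal well above background on each array. The members and the gene lists were chosen with earlier results of these data known. Text names all members, up to 4 called genes per list of non-members with the largest change (up to 2 where none was called), up to 2 defining markers per cell-type list and the 3 genes most like Saa3, Fgg and Fgl1, with further markers in one figure. Some genes are named beyond this rule, among them Pim1, Ctsg, S100a8 and several hepatocyte markers. Some genes that this rule covers are not reported here. Replicates are labelled as biological replicates. Alternatives were normexp (offset 50, on the median signal, as no mean signal was used here), quantile and median scaling, the deposited values, 2 other filters on dim probes, the mean of a gene's probes, slide, sex or replicate number in the fit, each slide alone, the groups compared alone and leaving out each array. The precision is limited by the number of arrays, 3 per group.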

Additional observations from a re-analysis of the deposited data

How the results depend on the processing

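Of 490 member fold changes recomputed under alternatives, 461 were counted as unchanged, 10 moved by more than the replicate spread, 5 passed the threshold newly and 14 changed sign. Between the cre groups, unchanged meant the same direction and side of the threshold. Against controls it meant a move of less than the replicate spread, so calls gained or lost there were not counted. Saa3 at 9 months with slide as a block, at adjusted p = 0.966 by limma, thus counted as unchanged. The sign changes all concern 9-month minus 3-month differences. Those of Fgg, Fgl1 and Lrg1 were near 0, and that of Orm1 was 0.47. With slide as a block, and within slide 2, Fgg was 0.23 and Lrg1 0.030; with the deposited values Fgl1 was -0.0012 and Lrg1 0.015. Leaving out 1 array at a time, that difference ran from -0.73 to 0.92 for Fgg, -0.25 to 0.27 for Fgl1, -0.15 to 0.10 for Lrg1 and -0.12 to 0.89 for Orm1.

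For 9-month cre against control, 7 members and 614 higher and 473 lower genes were called; with slide as a block or sex as a covariate all 3 counts were 0. They were 1, 127 and 58 with only the groups compared and 2, 201 and 116 with a replicate block, and 280 and 209 genes without the filter on dim probes. Leaving out 1 array gave 2 to 7 members, 91 to 980 higher genes (lowest without control replicate 2, highest without 9-month cre replicate 2) and 67 to 658 lower genes.

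For 3-month cre against control, 1 member and 62 higher and 14 lower genes were called, and all were 0 with slide as a block or with sex. Within slide 1 the counts were 0, 0 and 4, and with only the groups compared 4, 299 and 90. Normexp gave 0 members and 38 higher genes, the filter on every array 0 and 34, no filter 13 higher and 1 lower, the deposited values 35 and 8, median scaling 7 lower, and the replicate block 37 and 5. Leaving out 1 array gave 0 to 3 members, 1 to 240 higher and 0 to 82 lower genes.

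For 9-month against 3-month cre, 0 members and 301 higher and 539 lower genes were called. Normexp, the deposited values and only the groups compared each called 1 member, Saa2. Higher and lower genes numbered 158 and 269 with median scaling, 47 and 57 without the filter, 0 and 0 with slide as a block or within slide 2, 92 and 142 with sex, 113 and 222 with only the groups compared, and 2 and 4 with the replicate block; higher genes were 489 with normexp and 452 with the deposited values. Leaving out 1 array gave 0 to 1 members, 0 to 560 higher and 0 to 779 lower genes. The replicate block changed no member call in these last 2 comparisons. The labels' replicate numbers were not taken to pair the samples, since deviations of same-numbered arrays from their group means correlated at -0.236 to 0.045. The causes of these shifts were not tested. Low signal limits Fga, Fgb, Saa2 and Fgl1.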
